A study of Mus musculus with 9 samples.

Results

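Selenbp1 and Selenbp2, the selenium binding proteins of mouse, were examined as a pair of genes in the liver of mice fed a high-fat diet (HFD). They were found by gene symbol in the deposited count table, where 2 of the 33211 genes listed carry these symbols, and both passed the filter on low counts that left 14220 genes for testing. The pair was chosen by the measured rise of Selenbp2 between the diets, with the level of its paralog beside it, so the levels of both genes in this comparison are given as a description, without a test. RNA-seq had been performed on the liver of C57BL/6 mice (C57BL6/J in the methods of the study), a standard inbred laboratory strain, and all the animals were young males on the same lipid-rich diet. The groups differed in how that diet was kept once opened, in the freezer (HFDfre, 5 libraries) or in the fridge (HFDfri, 4 libraries). The animals were wild type, and as far as the labels tell each library is a separate animal. No mice on a standard diet were analysed here, so each value compares one stored HFD with the other.

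Selenbp1 is a methanethiol oxidase. It breaks down methanethiol, a sulfur compound formed from methionine by cells and gut bacteria, and releases hydrogen sulfide, hydrogen peroxide and formaldehyde. It binds selenium, but it is not a selenoprotein, because selenium is not built into its chain as selenocysteine. Selenbp2 is its closest relative in the mouse. It was first described as a liver protein of the cytosol that binds acetaminophen, and its amount in mouse liver is known to fall under peroxisome proliferators, drugs that act on the nuclear receptor PPARalpha. Both genes are strongly expressed in hepatocytes.

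Both genes lie on the plus strand of chromosome 3 (coordinates on GRCm38, annotation of GENCODE M21). Selenbp2 (ENSMUSG00000068877) spans positions 94693556 to 94704413, and Selenbp1 (ENSMUSG00000068874) spans positions 94933056 to 94944758. They are separated by 228642 bp. The longest coding transcript of each has 12 exons and a coding sequence of 1419 bases, or 472 codons before the stop. Aligned along their whole length, the transcripts were 98.14% identical, with 32 differing positions. The coding sequences were 98.73% identical, with 18 substitutions and no gap, and these fell evenly, 6 on each of the codon positions.

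How far the pair can be told apart by reads is shown by the coding sequence itself. The stretch that differs most, coding bases 401 to 550, holds 6 substitutions, printed here in capitals from the plus strand. It is exonic in both genes and is interrupted by intron sequence, at chr3:94937995-94939714 in Selenbp1 and chr3:94698083-94699598 in Selenbp2.

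Selenbp1: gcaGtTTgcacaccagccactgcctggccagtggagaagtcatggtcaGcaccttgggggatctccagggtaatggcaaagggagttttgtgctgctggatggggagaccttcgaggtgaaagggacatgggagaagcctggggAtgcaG

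Selenbp2: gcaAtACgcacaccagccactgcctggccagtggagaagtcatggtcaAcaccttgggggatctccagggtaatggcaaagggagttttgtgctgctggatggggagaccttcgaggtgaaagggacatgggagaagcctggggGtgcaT

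At the other extreme, coding bases 843 to 1035 are the same in both genes, a run of 193 bases, and a read that lies wholly within it matches both. It lies at chr3:94940226-94942737 in Selenbp1 and at chr3:94700116-94702593 in Selenbp2, again over more than 1 exon.

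Selenbp1 and Selenbp2: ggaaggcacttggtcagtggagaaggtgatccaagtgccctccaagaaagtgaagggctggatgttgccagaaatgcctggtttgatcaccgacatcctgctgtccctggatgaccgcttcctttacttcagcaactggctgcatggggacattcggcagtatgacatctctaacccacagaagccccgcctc

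Over all windows of 150 coding bases the number of differences ran from 0 to 6, with a median of 2. Of the 100-base stretches of the Selenbp1 transcript, 21.33% also occur exactly in Selenbp2. This share was 52.25% at 50 bases and 6.97% at 150 bases, and the shares of the Selenbp2 transcript found in Selenbp1 were 52.04%, 21.23% and 6.94% at 50, 100 and 150 bases. The methods of the study give paired reads of 150 bases, so the 150-base shares are the nearest to these data. None of the shares takes the second read of a pair into account. How the authors' tools divided reads that match both genes is not given in the sources used here. The level of either gene alone is therefore uncertain, and the counts of both added together are given beside it.

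Selenbp1 stayed within a narrow range in all libraries. Its level, as the TMM-scaled share of the library total (CPM), was 335, 302, 315, 296 and 293 in HFDfre libraries 1 to 5. It was 269, 306, 290 and 276 in HFDfri libraries 1 to 4. The groups overlapped, and the highest of the 9 libraries stood only 1.24-fold above the lowest. The HFDfre mean was 308 ± 17.1 CPM (SD, n = 5), the HFDfri mean was 285 ± 16.1 CPM (SD, n = 4), and the fitted log2 fold change of HFDfri over HFDfre was -0.11 ± 0.08 (SE). Of the tested genes, 27.8% changed by less than this in either direction. Its within-group SD on the log2 scale was 0.0796, against a median of 0.260 over all tested genes, which placed it at percentile 2.04 of the tested genes. Selenbp1 thus varied less between animals of one diet than most tested genes, taken at every level of expression. The tested genes include many of low level, and Selenbp1 was not set against genes of like level.

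Selenbp2 was higher in every library of the HFDfri group than in any library of the HFDfre group. It stood at 268, 261, 217, 121 and 256 CPM in HFDfre libraries 1 to 5. It stood at 2008, 661, 1261 and 1053 CPM in HFDfri libraries 1 to 4. The lowest HFDfri library was 2.47-fold above the highest HFDfre library. The mean was 225 ± 61.0 CPM in the HFDfre livers (SD, n = 5) against 1246 ± 566 CPM in the HFDfri livers (SD, n = 4), a fitted log2 fold change of 2.47 ± 0.30 (SE), or 5.55-fold. By increase it ranked in place 9 of the tested genes. A higher level without overlap of the libraries was seen in 4.02% of all tested genes, and a log2 fold change of at least this size in 0.0633%. Since this contrast chose the gene, nothing is read from these shares.

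**Figure D1:**
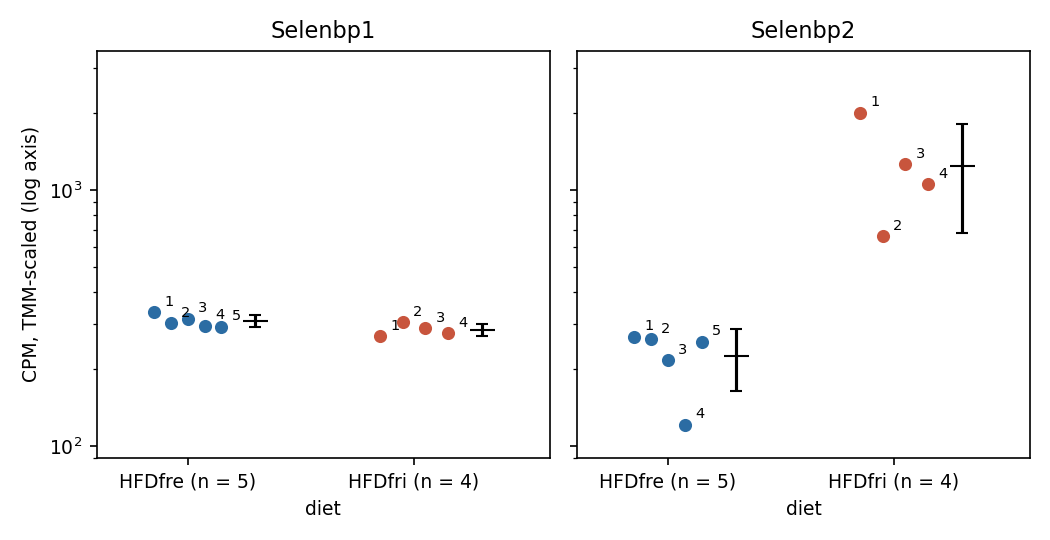
Level of Selenbp1 (left) and Selenbp2 (right) in each library, in TMM-scaled CPM on a log axis, with numbered points for the libraries of HFDfre (blue) and HFDfri (red) and a black bar for the group mean ± SD. Selenbp1 lies between 269 and 335 CPM throughout, whereas the 4 HFDfri libraries hold 661 to 2008 CPM of Selenbp2 and the 5 HFDfre libraries 121 to 268 CPM.

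Selenbp2 also varied far more between animals of one diet than Selenbp1 did. Its coefficient of variation was 27.2% in HFDfre and 45.4% in HFDfri, against 5.56% and 5.63% for Selenbp1. Within HFDfri the highest library stood 3.04-fold above the lowest, and within HFDfre 2.21-fold. Its within-group SD of 0.566 on the log2 scale was at percentile 81.6 of the tested genes. HFDfre library 4 was low for its group, and the next lowest library of that group, library 3, held 217 CPM.

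Per kilobase of the longest coding transcript, on which scale the genes can be set against each other, Selenbp1 stood at 180 ± 9.997 CPM per kb in HFDfre and 166 ± 9.38 in HFDfri. Selenbp2 stood at 131 ± 35.5 CPM per kb in HFDfre and 725 ± 329 in HFDfri (SD, n = 5 and 4). The order of the pair was thus opposite in the diets. Among 13042 genes ranked by level per kb, Selenbp1 kept to places 309 to 354 in HFDfre and 311 to 394 in HFDfri. Selenbp2 lay at places 376 to 750 in HFDfre libraries and at places 74 to 145 in HFDfri libraries.

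The ratio of the pair does not depend on the scaling between libraries. For each count of Selenbp1 there were 0.800, 0.865, 0.688, 0.410 and 0.874 counts of Selenbp2 in HFDfre libraries 1 to 5. In HFDfri libraries 1 to 4 there were 7.45, 2.16, 4.35 and 3.82. Selenbp1 held the larger count in all HFDfre libraries and Selenbp2 in all HFDfri libraries. Selenbp2 took 29.1% to 46.6% of the counts of the pair in HFDfre and 68.4% to 88.2% in HFDfri, and the log2 ratio differed by 2.53 between the group means.

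A trade of reads between the genes would leave their sum as it is. The sum was 602, 563, 532, 417 and 549 CPM in HFDfre libraries 1 to 5, and 2277, 967, 1550 and 1329 CPM in HFDfri libraries 1 to 4. It did not overlap between the groups, and its log2 fold change was 1.52 ± 0.21 (SE), or 2.87-fold. The mean gain of Selenbp2 was 1021 CPM, which is 3.31 times the whole Selenbp1 level in HFDfre. The mean Selenbp1 level fell by 23.0 CPM, which amounts to 2.26% of that gain. The genes did not rise together across the diets, and the counts missing from Selenbp1 were a small part of those added to Selenbp2.

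**Figure D2:**
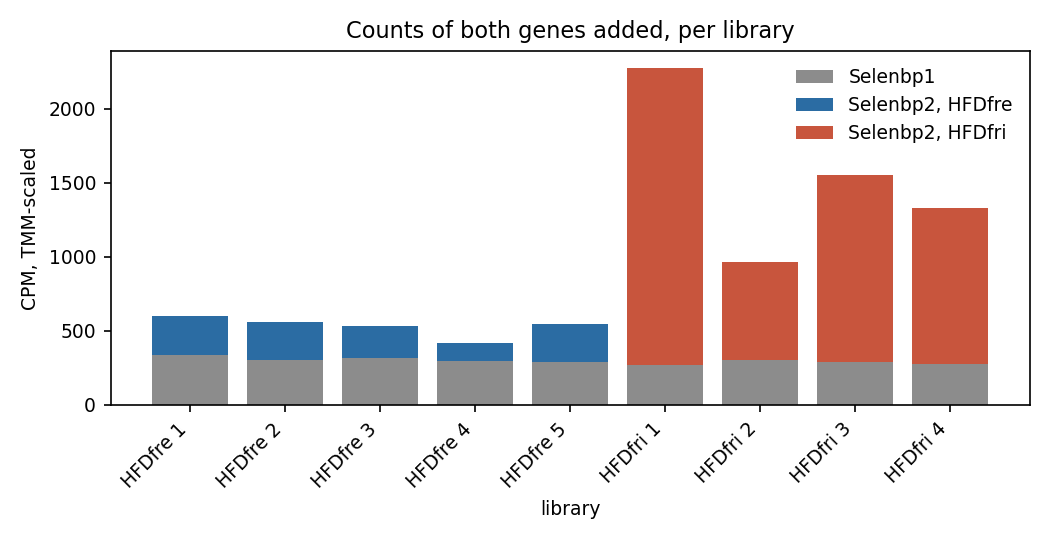
Stacked TMM-scaled CPM of Selenbp1 (grey) and Selenbp2 (blue in HFDfre, red in HFDfri) in each of the 9 libraries, from 0. The grey part is nearly level, and the sum is 417 to 602 CPM in HFDfre and 967 to 2277 CPM in HFDfri.

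Between animals of one diet the genes did not move together either. With each library set as its deviation from the group mean of log2 CPM, Pearson's r between the genes was -0.24 over the 9 libraries, and it ran from -0.53 to 0.07 when each library was left out in turn. It was 0.40 in the 5 HFDfre libraries and -0.85 in the 4 HFDfri libraries, and it is given as a description only, since these points share libraries and scaling. Of 10122 genes whose log2 CPM averaged 1 or more, 71.7% followed Selenbp1 more closely than Selenbp2 did. In HFDfri, library 1 held the most Selenbp2 and the least Selenbp1, and library 2 the least Selenbp2 and the most Selenbp1. The deviations of Selenbp1 in these libraries were -0.08 and 0.10, against 0.80 and -0.80 for Selenbp2.

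By the same measure, the genes most like Selenbp1 were Fzr1 (r = 0.92), an activator of the anaphase-promoting complex, Gm15800 (0.92), Syne2 (0.91), a protein of the nuclear envelope, Agtpbp1 (0.91), a carboxypeptidase acting on tubulin, and Dis3l2 (0.90), an exoribonuclease. Among the least like it was 2010111I01Rik (-0.94). The genes most like Selenbp2 were Pmm2 (0.97), a phosphomannomutase of protein glycosylation, Arhgap26 (0.97), Pdia5 (0.96), a disulfide isomerase of the endoplasmic reticulum, Rbm48 (0.96) and 3110082I17Rik (0.95). The least like it were Nudcd3 (-0.96) and Fam83h (-0.97). Likeness within the diets and likeness across them differed from gene to gene. Over all 9 libraries without centring, r with Selenbp2 was 0.95 for Pdia5 and 0.97 for 3110082I17Rik, but -0.20 for Pmm2. The log2 fold changes of these genes were 0.71, 1.62 and -0.13.

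The upstream sequences of the pair are shown because the genes, alike in sequence, differed in level. These are the 250 bases before each RefSeq start site (GRCm38.p6, plus strand), with capitals for the positions at which the aligned promoters differ. The opening letters CC of Selenbp1 are also in capitals, but they lie before the aligned stretch and have no partner in the Selenbp2 window. Both windows run a short way into the first exon as GENCODE annotates it. The window lies at chr3:94932833-94933082 for Selenbp1 and at chr3:94693323-94693572 for Selenbp2.

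Selenbp1: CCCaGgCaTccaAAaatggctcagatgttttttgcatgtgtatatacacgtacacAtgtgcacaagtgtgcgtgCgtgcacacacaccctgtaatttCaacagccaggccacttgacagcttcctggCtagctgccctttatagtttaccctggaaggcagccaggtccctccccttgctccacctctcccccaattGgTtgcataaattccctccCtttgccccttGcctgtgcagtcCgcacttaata

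Selenbp2: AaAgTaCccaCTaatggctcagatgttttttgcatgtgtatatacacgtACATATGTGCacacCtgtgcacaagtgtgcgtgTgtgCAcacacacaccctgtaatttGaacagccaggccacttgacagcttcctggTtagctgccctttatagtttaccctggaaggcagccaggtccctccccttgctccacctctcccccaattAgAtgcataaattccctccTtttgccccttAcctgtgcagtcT

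Over the 300-base RefSeq windows, which add 50 bases past the start, the promoters were 90.67% identical. Each 250-base window held 1 match to the TATA box letters TATAAA, on the minus strand, as did 12.37% of 32851 mouse promoters on either strand. The CCAAT letters matched in 2 places in Selenbp1 and 1 place in Selenbp2, and in 33.85% of all promoters. The plus-strand match lay 59 bases before the start of Selenbp1 and 49 bases before that of Selenbp2. No match was present in either window to the STAT letters TTCNNNGAA (7.02% of promoters), the antioxidant response element core TGACNNNGC (10.16%), the E-box CACGTG (6.02%) or the nuclear receptor motif AGGTCA (14.02%). These windows describe letters only, and no binding was measured in these samples.

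No tested gene around the pair changed by as much as Selenbp2. Within 300 kb of either gene, 27 further genes were tested, with log2 fold changes from -0.68 to 0.79 and a median of 0.00. Of these, 14 were higher by sign and 13 lower. None passed an edgeR adjusted p of 0.05, which 1.05% of all tested genes did. By unadjusted p, 4 passed (Tuft1, Snx27, Pip5k1a and Gabpb2), and by DESeq2 with adjustment 2 passed (Tuft1 and Snx27), all of them higher. Over all tested genes 21.2% passed by unadjusted p and 6.71% by DESeq2, in either direction. Taken in either direction, these counts are thus near or below the share of all genes. The share of all genes that was higher alone is not given here for these measures. The libraries of 3 of the 27 (Tuft1, Snx27 and Pip5k1a) did not overlap between the groups, and all 3 were higher. Over all tested genes 4.02% were higher without overlap, and 7.69% did not overlap in either direction. Tuft1, which encodes tuftelin, had the largest value, 0.79 ± 0.17 (SE), with an edgeR adjusted p of 0.05004, just above the threshold. The 3 tested genes that lie between Selenbp2 and Selenbp1 had log2 fold changes of 0.08 (Cgn, the tight junction protein cingulin), 0.05 (Pogz) and -0.03 (Psmb4, a proteasome subunit).

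**Figure D3:**
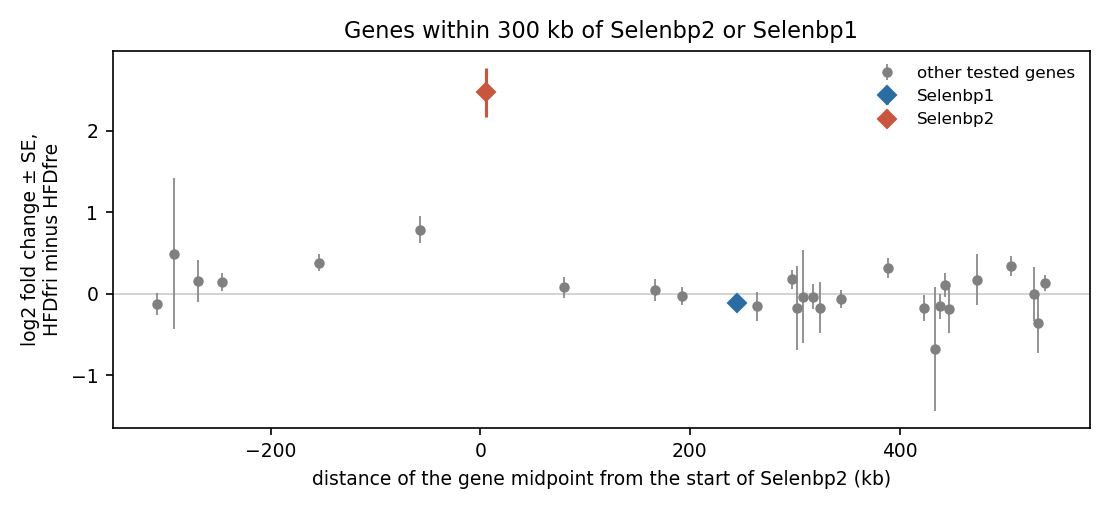
Log2 fold change of HFDfri over HFDfre, with its SE, for Selenbp2 (red diamond), Selenbp1 (blue diamond) and the 27 other tested genes within 300 kb (grey), against the distance of each gene's midpoint from the start of Selenbp2 in kb. Selenbp2 stands at 2.47, Selenbp1 at -0.11, and the other genes between -0.68 and 0.79.

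The genes that make, use or remove the substrate and products of Selenbp1 gave no call by edgeR with all libraries. Of 20 genes of methanethiol and hydrogen sulfide metabolism, none passed the edgeR test in either direction, 2 were lower at an unadjusted p under 0.05 (Ethe1 at -0.42 and Cdo1 at -0.38), and 2 were lower by DESeq2, beside 21.2% and 6.71% of all tested genes in either direction. Without HFDfri library 1, where 1106 genes passed by edgeR over all, 1 member rose and 2 fell. Leaving out any other library gave no call in this list. The list median was -0.03, beside -0.01 for all tested genes. Its most abundant members were enzymes of methionine metabolism. Bhmt, which remethylates homocysteine, had a log2 fold change of -0.16 ± 0.12 (SE). Mat1a, which makes S-adenosylmethionine, had 0.03 ± 0.13, and Ahcy, which splits S-adenosylhomocysteine, had 0.10 ± 0.13.

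By edgeR with all libraries, the same held for the removal of hydrogen peroxide and formaldehyde. None of its 15 tested genes passed by edgeR, 3 were lower by unadjusted p (Aldh2, Gpx4 and Esd), 2 were lower by DESeq2, beside the same shares of all tested genes, and the median was -0.02. Catalase, Cat, was at 2448 ± 93.7 CPM in HFDfre and 2360 ± 94.3 CPM in HFDfri (SD, n = 5 and 4). Aldh2, an aldehyde dehydrogenase, was lower in all HFDfri libraries, at -0.28 ± 0.11 (SE), but with an edgeR adjusted p of 0.180. Gpx1, a selenium-dependent peroxidase, had -0.10 ± 0.12. Without HFDfri library 1, 1 member of this list was lower by edgeR.

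Selenoproteins and genes of selenium handling gave no call by edgeR with all libraries either. None of 26 tested genes passed by edgeR, with 3 higher (Selenos, Sephs2 and Txnrd1) and 5 lower (Pstk, Gpx4, Selenow, Txnrd3 and Selenoo) by unadjusted p, and 1 higher and 3 lower by DESeq2, again beside 21.2% and 6.71% of all tested genes. Selenop, the selenium carrier of plasma, was at 4996 ± 552 CPM in HFDfre and 5121 ± 290 CPM in HFDfri (SD, n = 5 and 4). Sephs2, which makes the selenium donor for selenocysteine, had a log2 fold change of 0.38 ± 0.16 (SE, edgeR adjusted p = 0.208). Without HFDfri library 1, 2 members were higher and 3 lower by edgeR. The median of this list was -0.01.

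Male-biased liver genes, which depend on the pulsed growth hormone of male mice, included several that rose with Selenbp2. Of 18 tested genes, 5 rose with an edgeR adjusted p under 0.05, where 0.499% of all tested genes did so, and none fell. Moxd1 had no count in any HFDfre library and passed the filter through HFDfri, where it stood at 0.204 to 6.98 CPM, so it is left out of the counts that follow. The 17 others were all higher by sign, as were 49.1% of all tested genes, and 9 of them did not overlap between the groups, beside 4.02% of all tested genes. Their median was 0.61 on the log2 scale, and 0.67 with Moxd1 set to the bound that a floor of 3 counts per library gives. The members that rose were Serpina1e, an alpha-1 antitrypsin (2.09 ± 0.36 SE, adjusted p = 0.0314), Egfr, the epidermal growth factor receptor (1.85 ± 0.33, 0.0354), Cyp7b1, the oxysterol hydroxylase (1.51 ± 0.25, 0.0293), C6 of complement (1.14 ± 0.21, 0.0354) and Ugt2b38, a glucuronosyltransferase (0.81 ± 0.12, 0.0293). The major urinary proteins Mup3 and Mup20, the most abundant members beside Serpina1e, had 0.10 ± 0.17 and 0.31 ± 0.20. Serpina1e, the Mup genes and Ugt2b38 belong to families of near-identical copies, so their counts are uncertain in the same way as those of Selenbp2. This list was chosen with earlier results known, and 3 of the 14 members not named in them passed.

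The calls in the male-biased list changed with single animals, as the calls over all genes did, which numbered 150 with all libraries and 6, 6 and 10 without HFDfre library 3, HFDfre library 5 and HFDfri library 3. In this list none remained past the threshold without HFDfre library 3, HFDfre library 5 or HFDfri library 3, 1 passed without HFDfre library 4 or HFDfri library 4, and 2 without HFDfre library 1 or 2. Without HFDfri library 1, 8 passed, and without HFDfri library 2, 7 passed. With the share of counts from Gm26924, a locus with ribosomal RNA sequence, as a covariate 1 passed. With a term for the replicate number 0 passed. With Moxd1 counted, at least 16 of 18 were higher by sign under each alternative run that tested it. With at least 10 counts asked of every library Moxd1 dropped out, and all 17 tested were higher. The median stayed between 0.55 and 0.75 over all these runs.

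Selenbp2 also ran with this list from animal to animal. For the 17 of these genes whose log2 CPM averaged 1 or more, the mean log2 CPM was 7.77, 7.60, 7.61, 7.13 and 7.49 in HFDfre libraries 1 to 5, and 8.55, 8.05, 8.25 and 8.21 in HFDfri libraries 1 to 4. In HFDfri the order of the 4 libraries by this mean was the same as by Selenbp2. In HFDfre library 1 was highest and library 4 lowest by both. With the group means taken out, 15 of the 17 genes had a positive r with Selenbp2, with a median of 0.49, whereas 49.4% of all 10122 genes had a positive r. For Selenbp1, 11 of the 17 were positive, with a median r of 0.10. Serpina1e stood at 777 CPM in HFDfre library 4, the lowest of all libraries, and at 12171 CPM in HFDfri library 1, the highest, as Selenbp2 did. These correlations are descriptions over 9 libraries that share their scaling.

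**Figure D4:**
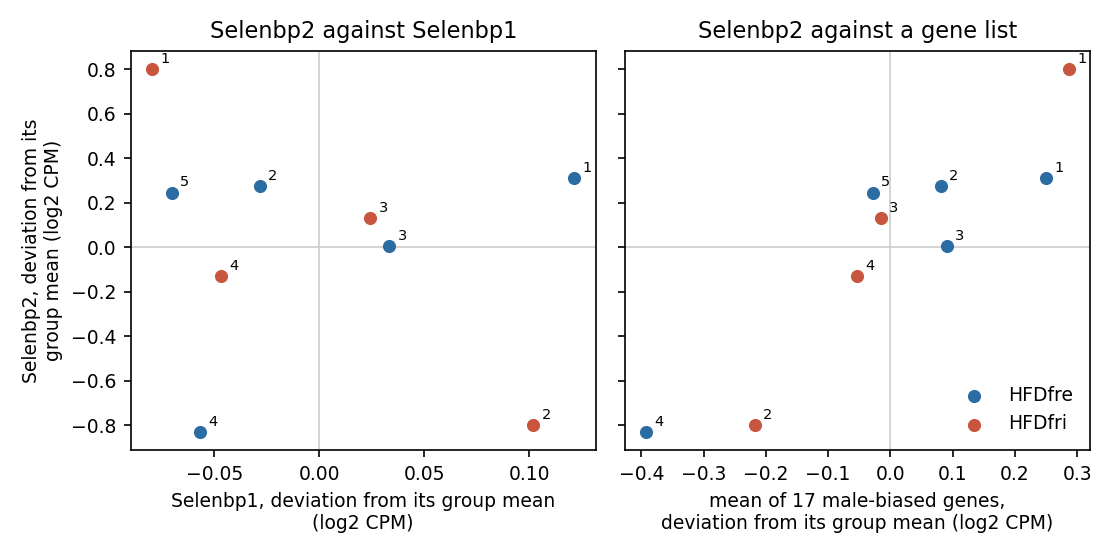
Selenbp2 in each library against Selenbp1 (left) and against the mean of 17 male-biased liver genes (right), all as deviations from the group mean in log2 CPM, for HFDfre (blue) and HFDfri (red), with library numbers. HFDfre library 4 and HFDfri library 2 are low for both Selenbp2 and the male-biased mean, and HFDfri library 1 is high for both, while Selenbp1 varies by only about 0.1 either way.

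Female-biased genes gave a single call by edgeR with all libraries, and more by the other measures. Of 19 tested members, Tox, a nuclear protein best known from T cells, fell (-1.03 ± 0.19 SE, edgeR adjusted p = 0.0354), where 0.556% of all tested genes fell, and the median was -0.61. By sign 13 of the 19 were lower and 6 higher. By unadjusted p 7 were lower and 0 higher, and by DESeq2 5 were lower. Over all tested genes 21.2% and 6.71% passed by these measures, in either direction. The most abundant members did not pass by edgeR: the steroid hydroxylase Cyp17a1 had -0.61 ± 0.19, Rtn4 had 0.05 ± 0.20 and Cyp2c40 had 0.42 ± 0.33. Tox did not pass when any 1 of the HFDfre libraries, HFDfri library 3 or HFDfri library 4 was left out, and 5 members passed without HFDfri library 1.

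Targets of PPARalpha, the receptor of peroxisome proliferators, included several that fell where Selenbp2 was high. Of 31 tested genes, 5 fell by the edgeR test, against 0.556% of all tested genes, none rose, and the median was -0.21. By unadjusted p 12 were lower and 2 higher, and by DESeq2 7 were lower, beside 21.2% and 6.71% of all tested genes in either direction. In 7 of the 31 all HFDfri libraries lay under all HFDfre libraries, beside 3.66% of all tested genes. Acot3 and Acot4, acyl-CoA thioesterases, fell by 2.45 ± 0.30 (SE, adjusted p = 0.0117) and 1.05 ± 0.16 (0.0293) on the log2 scale. The fatty acid hydroxylases Cyp4a14 and Cyp4a10 fell by 1.63 ± 0.33 (0.0425) and 0.86 ± 0.17 (0.0396), and Vldlr, the very low density lipoprotein receptor, fell by 1.56 ± 0.31 (0.0396). This list holds further Acot and Cyp4a genes, and how far reads tell the copies of these families apart was not examined. Fabp1, the abundant liver fatty acid binding protein, did not pass, with -0.37 ± 0.17. Leaving out 1 library left 1 to 6 lower calls, with 1 without HFDfre library 3 or 5 or HFDfri library 4, 2 without HFDfre library 2 or 4 or HFDfri library 3, and 3 without HFDfre library 1 or HFDfri library 2. Of the members not named in earlier results, 2 of 28 passed.

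HFDfre library 4, the library with the least Selenbp2, held the most Acot3 and Cyp4a14. Acot3 was at 22.5, 22.1, 20.7, 50.4 and 28.2 CPM in HFDfre libraries 1 to 5, and at 4.29, 4.77, 8.05 and 3.92 CPM in HFDfri libraries 1 to 4. Cyp4a14 was at 730 CPM in HFDfre library 4, and at 214 to 435 CPM in the other libraries of that group. In HFDfri libraries 1 to 4 it was at 126, 109, 209 and 96.8 CPM. The groups did not overlap for either gene. Within HFDfri the order was not the inverse of Selenbp2. Library 3, with 1261 CPM of Selenbp2, held the most Acot3 and Cyp4a14. Library 2, with the least Selenbp2, also had the lowest mean log2 CPM of the PPARalpha targets, 6.76. Within the diets, 23 of 29 PPARalpha targets had a negative r with Selenbp2 (median -0.38), and 28 of 29 had a negative r with Selenbp1 (median -0.35). Of all 10122 genes, 49.4% had a positive r with Selenbp2 and 49.8% with Selenbp1. A negative r with Selenbp2 was not particular to this list, and it prevailed in each list but the male-biased one. It was seen in 15 of 20 genes of methanethiol and hydrogen sulfide metabolism, 16 of 24 selenium genes and 19 of 26 NRF2 targets, described below.

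Targets of NRF2, the regulator of the antioxidant and detoxification response, included several that fell. Of 29 tested genes, 4 fell by the edgeR test, against 0.556% of all tested genes, none rose, and the median was -0.41. These were glutathione transferases: Gsta1 (-2.45 ± 0.49 SE, adjusted p = 0.0429), Gsta2 (-1.27 ± 0.20, 0.0293), Gstm2 (-0.79 ± 0.16, 0.0467) and Gstm1 (-0.69 ± 0.11, 0.0293). Their family also holds near-identical copies. By unadjusted p 18 of the 29 were lower and 3 higher (Txnrd1, Osgin1 and G6pdx), and by DESeq2 12 were lower. Over all tested genes 21.2% and 6.71% passed by these measures, in either direction. In 11 of the 29 all HFDfri libraries lay under all HFDfre libraries, beside 3.66% of all tested genes. In 1 they lay above, beside 4.02%. Gsta3, the most abundant member, had 0.01 ± 0.18, and Ephx1, the microsomal epoxide hydrolase, had -0.57 ± 0.14 (adjusted p = 0.0741). None of the 4 calls was left without HFDfre library 3, HFDfre library 5, HFDfri library 3 or HFDfri library 4, and 2 calls stood without HFDfre library 4. Without HFDfre library 1 or 2, 3 and 4 members were lower. Without HFDfri library 1 or 2, 6 and 5 were lower.

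**Figure D5:**
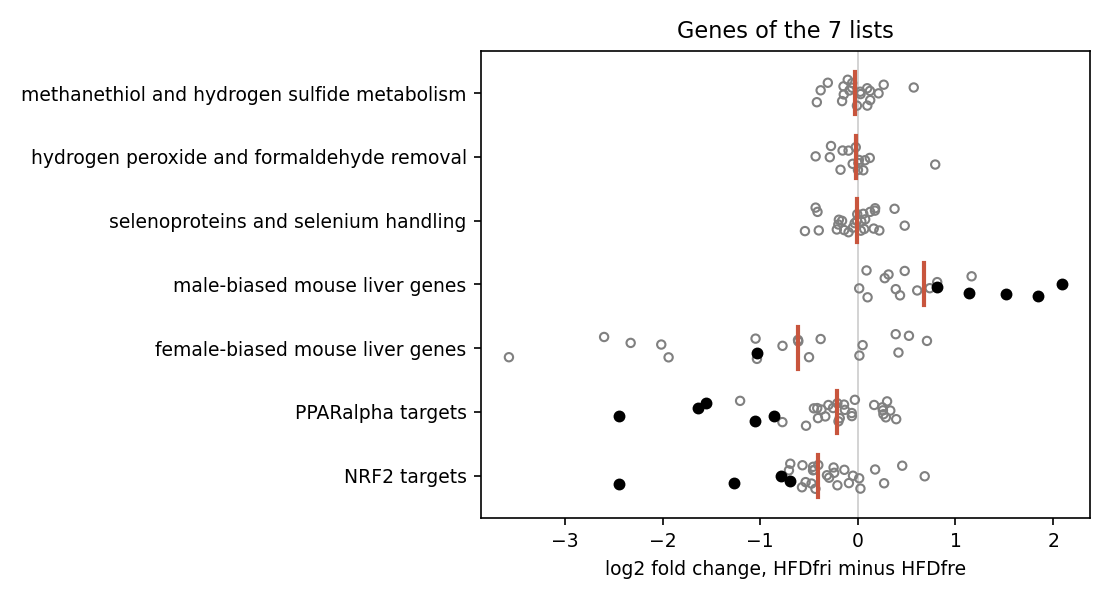
Log2 fold change of HFDfri over HFDfre for the tested genes of the 7 lists, with filled points for genes with an edgeR adjusted p under 0.05, open points for the others and a red bar for the list median (Moxd1, without counts in HFDfre, is not drawn). The male-biased list has a median of 0.67 with Moxd1 counted and holds 5 filled points on the higher side, and the lists around the chemistry of Selenbp1 have medians of -0.03, -0.02 and -0.01.

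Several features of the libraries moved with the diet. Library totals ran from 58614917 to 69353439 counts, so counting error is small for both genes. Gm26924 took 1.20% to 11.1% of the counts in HFDfre and 0.466% to 5.21% in HFDfri, and mitochondrial transcripts took 11.4% to 19.8% and 8.93% to 13.6%. Within the 2 HFDfre and 3 HFDfri libraries under a Gm26924 share of 3%, the log2 fold change was 2.39 for Selenbp2 and -0.11 for Selenbp1. The liver label was checked by 8 hepatocyte markers, which summed to 90106 to 96428 CPM in HFDfre and 80242 to 107882 CPM in HFDfri. None was called by edgeR. By unadjusted p 4 were higher and 1 lower, a larger share than the 21.2% of all tested genes in either direction. Markers of other cells summed to far less, with 7 Kupffer cell and macrophage genes at 62.5 to 137 CPM and 70.6 to 93.3 CPM, 6 stellate cell genes at 108 to 166 and 84.7 to 148 CPM, and 7 lymphocyte genes at 2.11 to 4.19 and 1.05 to 2.12 CPM. Erythroid markers were more abundant, with 3 genes at 308 to 412 and 209 to 600 CPM. Among them, Alas2 of heme synthesis was called (0.40 ± 0.08 SE, edgeR adjusted p = 0.0486, higher). It was the only call over all the cell type marker sets, beside 1.05% of all tested genes, and nothing is read from it. Within the diets, 8 of 9 periportal and 8 of 9 pericentral hepatocyte markers had a negative r with Selenbp2, where 49.4% of all genes had a positive r. The median r was -0.50 for the periportal and only -0.19 for the pericentral markers. The r of Selenbp2 with the mean of each set was -0.70 and -0.12. The part of these features in the level of Selenbp2 was not tested. In such bulk samples, fewer cells of a type and less RNA per cell cannot be told apart.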

How the data were processed

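Liver RNA was extracted with TRIzol and sequenced as paired-end Illumina reads. The library kit is NEBNext Ultra in the labels and KAPA RNA HyperPrep in the methods of the study, and this was not settled. The submitters' processing notes name mm10 (GRCm38), HISAT2 and StringTie; the annotation, the use of strand and the handling of reads that match several genes are not given in the sources used here. The values the authors deposited are taken as estimated counts per gene, unscaled between libraries; rounding changed 0 of them. Genes were filtered with filterByExpr and compared by edgeR 4.0.16 with its quasi-likelihood F test (R 4.3.3, TMM, no covariate, two-sided), as HFDfri minus HFDfre, with Benjamini-Hochberg adjustment over all 14220 tested genes and a threshold of 0.05. The SE is the fold change over the root of its F. Log2 CPM used a prior count of 2. p-values measure only the spread between these samples. The script was tested on simulated data.

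Named genes were Selenbp1, Selenbp2, members of the 7 lists and neighbours within 300 kb with an adjusted p under 0.05, the 3 most abundant members of each list, and for each of the pair the 5 genes with the highest and 2 with the lowest r. Members and lists were chosen with earlier results of these data known, and the lists were written from general knowledge. Moxd1, the neighbours and the genes named for an unadjusted p were named after their values were seen. Some genes that this rule names are not reported here. Sequences come from GENCODE M21 on GRCm38 and, for promoters, from RefSeq, aligned with Biopython 1.88. DESeq2 1.42.0, other scalings and filters, a replicate term and leaving out each library were alternatives.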

Additional observations from a re-analysis of the deposited data

Results flagged for a closer look

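Selenbp2 in HFDfre library 4 lay far below the other libraries of its group. Its log2 CPM was 6.92, against 7.76 to 8.06 in the other 4, and the gap to the nearest of them was 0.732 of the whole range of the group, above Dixon's limit of 0.71 for 5 samples. The same library was also lowest in the ratio and in the sum of the pair, but under that limit (0.684 and 0.659). In all, 8 sets of values were examined this way, and chance flags about 1 in 20. Without this library, Selenbp2 remained higher in HFDfri, within the range given for the alternatives.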

How the results depend on the processing

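The values of the pair kept their direction and moved by less than 1 SD between replicates under every alternative run. The log2 fold change of Selenbp2 lay between 2.13 (without HFDfri library 1) and 2.68 (without HFDfri library 2) over 19 alternatives, and that of Selenbp1 between -0.15 and -0.05. The sum of the pair lay between 1.26 and 1.69, and the difference in log2 ratio between 2.23 and 2.83, also when each library was left out. From mean CPM by library totals the log2 ratio differed by 2.55. It was not recomputed under other filters.

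Counts of calls moved much more. Over all genes, 150 passed an adjusted p of 0.05, and the number was 954 with DESeq2, 76 with library totals, 72 without a filter, 38 with the Gm26924 share as a covariate, 2 within the libraries under a Gm26924 share of 3% (chosen after seeing the data), and 6 to 1106 when each library was left out. Of the 155 genes in the 7 lists, 15 passed, against 40 with DESeq2, 6 with the covariate, 1 within the libraries under a share of 3%, and 1 to 35 when each library was left out. Of the named genes, Acot3 passed in 17 of 18 alternatives, and the others in 5 to 12. The cause of these shifts was not tested. Library totals moved the median of all genes by 0.06.

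Same-numbered libraries did not deviate together (r = 0.03, 0.08, -0.14 and 0.03 for numbers 1 to 4), so the labels share only a number. With the replicate block, 0 genes passed by edgeR (2536 at an unadjusted p under 0.05) and 0 list members, while the log2 fold change was 2.49 for Selenbp2, -0.13 for Selenbp1 and 1.48 for the sum, and the log2 ratio differed by 2.61. Whether single reads were assigned to the right gene of the pair cannot be told from gene counts.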
